A study of Mus musculus with 11 samples.

Results

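The matrix metalloproteinases (MMPs), the disintegrin-like proteases with thrombospondin repeats (ADAMTS), and the tissue inhibitors of metalloproteinases (TIMPs) were followed through 11 cell lines of OvTrpMyc mice. Members were taken by symbol: 41 of the 28284 genes listed were an Mmp, a Timp, or an Adamts followed by its number, namely 19 MMPs, 4 TIMPs, and 18 ADAMTS genes. OvTrpMyc mice are C57BL/6 mice that carry, heterozygous at the Trp53 locus, a transgene in which the oviductal promoter of Ovgp1 drives dominant-negative p53-R270H together with Myc, and the insertion leaves the mice 1 intact Trp53 allele. All 11 lines carry this genotype label. The wild-type Trp53 allele, present in the mice, was absent from the lines by the study's PCR. The lines share RPMI medium and the absence of a treatment, and no line of wild-type cells was among them. From an ovary came 7 lines (F318 LOV, F318 ROV, F319 ROV, F326 ROV, F339 ROV, F364 LOV, and F364 ROV), from a uterus came 2 (F319 and F333), and from visible tumors came 2 (splenic in F326, peritoneal in F361). The 11 lines come from 7 mice, since F364, F326, F319, and F318 are each the source of 2 lines. With 1 library per line, the error of a comparison is the spread between lines. The labels do not give the age of the mice. The study's methods describe F361 as a line that no longer expressed the mutant p53 copy, although its RNA reads covered the codon. How that goes with the PCR result was not tested here.

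MMPs are secreted or membrane-anchored zinc proteases that are made as inactive zymogens and cut collagens, gelatin, laminins, and other proteins of the matrix and cell surface. TIMPs bind the active site of MMPs in equal proportion, and TIMP3, which stays attached to the matrix, also inhibits several ADAMTS and ADAM proteases. MMP14, a membrane-type enzyme, activates pro-MMP2 at the cell surface through a complex in which TIMP2 is the bridge, and the ADAMTS family divides into proteases that trim procollagens and proteases that cut aggrecan, versican, and related proteoglycans. These transcripts encode zymogens and inhibitors, and no protease activity was measured.

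The libraries did not all look alike, and the difference bears on every level given here. Library totals ran from 13580525 to 27044598 counts. Libraries 1 to 7, as numbered in the labels, held 7.68% to 14.8% of their counts on a list of 31 genes of skeletal muscle fibers, and libraries 8 to 11 (both uterus lines, F318 LOV, and F339 ROV) held 0.159% to 1.26%. The 4 Y-linked genes listed summed to 128 to 174 CPM (counts per 1000000 counts of the library) in libraries 1 to 7, against 1.75 to 19.2 CPM in libraries 8 to 11, although the ovary and the uterus are female organs. Summed blood cell markers (14 genes) were at 62.0 to 129 CPM and at 9.69 to 20.8 CPM, and summed mesenchymal markers (12 genes) at 1694 to 15993 CPM and at 20212 to 35929 CPM, in the same order. Against the label of ovarian or uterine cancer, 6 of 10 epithelial markers (Epcam, Pax8, Cdh1, Cldn3, Cldn4, and Esrp1) reached at most 3.68 CPM in any line. The 4 keratins went higher in single lines: Krt8 (52.7 CPM), Krt18 (67.9 CPM), and Krt19 (21.7 CPM) peaked in F319 ROV and Krt7 (40.5 CPM) in F333 uterus, with medians of 0.253 to 2.65 CPM over the 11 lines. In a bulk library, fewer cells of a type and less RNA per cell cannot be told apart.

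Of the 41 members, 25 reached 10 CPM in at least 1 line (9 MMPs, all 4 TIMPs, and 12 ADAMTS genes). Another 9 peaked between 1 and 10 CPM, and 7 stayed below 1 CPM throughout (Mmp10, Mmp12, Mmp21, Mmp25, Mmp27, Adamts13, and Adamts18). In all 11 lines, 14 members were at 1 CPM or more, and a single line held 22 to 29 of them at that level. A gene at 3 counts or fewer, which is 0.111 to 0.221 CPM, was taken as not detected. The heat map of the 25 abundant members shows the difference between the libraries as a step for some genes. Timp1, Timp2, Timp3, Mmp11, Mmp23, and Mmp28 were brighter in all of libraries 8 to 11 than in any of libraries 1 to 7. Timp4, Adamts8, and Adamts15 were darker in the same way. Such steps were common, with 26.1% of 15954 genes compared being higher and 17.1% lower without overlap.

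**Figure D1:**
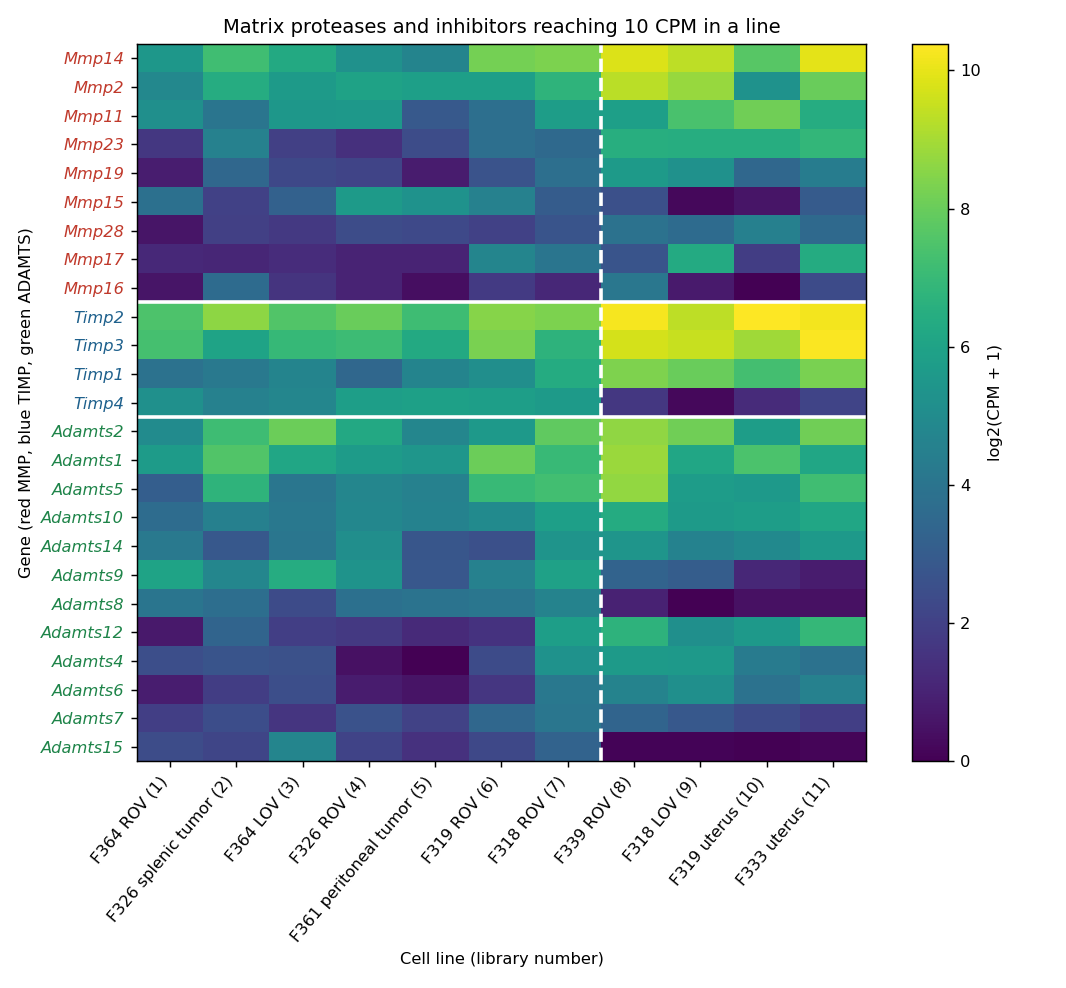
Level of the 25 members that reached 10 CPM in a line, as log2(CPM + 1), in each of the 11 lines, with the library number in parentheses. Rows are grouped by family and ordered by median, and the dashed line separates libraries 1 to 7 from libraries 8 to 11. Timp2 was the brightest row in most lines, and Adamts15 went from 1.77 CPM or more on the left to 0.0928 CPM or less on the right.

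The inhibitors were among the most abundant members. Timp1 lies at chrX:20870166-20874735, Timp2 at chr11:118301069-118355740, Timp3 at chr10:86300372-86349506, and Timp4 at chr6:115241892-115252205 (GRCm38, GENCODE M21). Per transcript length (TPM, counts over exon length, scaled to 1000000 over the genes with a length), the highest medians over the 11 lines were those of Timp2 (264 TPM), Timp1 (116 TPM), and Mmp14 (111 TPM), ahead of Timp3 (56.9 TPM), Mmp2 (52.3 TPM), and Mmp11 (48.8 TPM). Timp2 gave the most inhibitor transcript per length in 7 lines, and Timp1 gave the most in 4 (F318 ROV, F339 ROV, F318 LOV, and F333 uterus). Timp2 was at 176 CPM in F364 ROV, 391 in the F326 splenic tumor, 187 in F364 LOV, 254 in F326 ROV, 142 in F361, 358 in F319 ROV, 323 in F318 ROV, 1217 in F339 ROV, 647 in F318 LOV, 1335 in F319 uterus, and 1173 in F333 uterus. Its lowest level in libraries 8 to 11 lay above its highest in libraries 1 to 7.

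Timp1, the inducible and X-linked inhibitor, was at 14.1 CPM in F364 ROV, 17.5 in the F326 splenic tumor, 24.7 in F364 LOV, 10.2 in F326 ROV, 24.9 in F361, 34.5 in F319 ROV, 83.3 in F318 ROV, 331 in F339 ROV, 255 in F318 LOV, 155 in F319 uterus, and 312 in F333 uterus. Timp3, the matrix-bound inhibitor, was at 160, 63.6, 122, 137, 78.9, 315, and 105 CPM in libraries 1 to 7 in the same order of lines, and at 836, 736, 481, and 1270 CPM in libraries 8 to 11. Neither gene overlapped between the 2 sets of libraries. Timp3 shares 21.3% of its exon bases with Syn3 on the other strand, and Syn3 itself had a median of 0.343 CPM.

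Timp4, best known from heart, muscle, and fat, ran the other way. It was at 36.2, 22.3, 26.3, 55.0, 59.2, 55.7, and 50.1 CPM in libraries 1 to 7 and at 2.20, 0.175, 1.41, and 3.34 CPM in libraries 8 to 11, again with no overlap. Its share of the summed TIMP level per length ran from 0.00545% in F318 LOV to 11.9% in F361. The muscle fiber list moved with Timp4 between the sets of libraries. Within libraries 1 to 7, F361 had the highest muscle share (14.8%) and the highest Timp4 (59.2 CPM) and F326 ROV 14.4% and 55.0 CPM, while F364 LOV had 13.9% and 26.3 CPM and F318 ROV, with the lowest share (7.68%), had 50.1 CPM. The part of muscle RNA in the level of Timp4 was not tested.

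Among the proteases, 4 MMPs made up most of the family's level in every line. Mmp2, Mmp11, Mmp14, and Mmp23 together held a median of 88.2% of the summed MMP level per length, from 72.6% in F361 to 94.6% in F339 ROV. They lie on different chromosomes (Mmp2 on 8, Mmp11 on 10, Mmp14 on 14, and Mmp23 on 4). The leading MMP changed with the line: Mmp2 led in 5 lines, Mmp11 in 3 (both F364 lines and F319 uterus), and Mmp14 in 3 (F319 ROV, F318 ROV, and F333 uterus).

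Mmp14, the membrane-type protease that activates pro-MMP2, reached the highest CPM of these 4. It was at 43.6 CPM in F364 ROV, 147 in the F326 splenic tumor, 77.7 in F364 LOV, 37.6 in F326 ROV, 24.5 in F361, 292 in F319 ROV, 323 in F318 ROV, 902 in F339 ROV, 660 in F318 LOV, 207 in F319 uterus, and 998 in F333 uterus. The 2 sets of libraries overlapped, because F319 ROV and F318 ROV lay above F319 uterus. Mmp2, the gelatinase, was at 27.7, 86, 49.6, 62.0, 56.6, 57.6, and 108 CPM in libraries 1 to 7 and at 631, 434, 38.0, and 255 CPM in libraries 8 to 11. F319 uterus was the exception among the last 4, with less Mmp2 than 6 of libraries 1 to 7. The other gelatinase, Mmp9, stayed between 0.0873 CPM in F318 LOV and 7.78 CPM in the F326 splenic tumor.

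Mmp11, a stromelysin that furin activates inside the cell, had a different leader. It was at 35.3, 15.4, 44.2, 45.4, 6.41, 13.0, and 53.7 CPM in libraries 1 to 7 and at 56.6, 167, 278, and 85.8 CPM in libraries 8 to 11, so that F319 uterus was highest and held 51.0% of its MMP level as Mmp11. Mmp11 shares 5.58% of its exon bases with the opposite-strand gene Chchd10, whose median was 606 CPM, and the strand setting of the counting is not given in the sources used here. Mmp23, which is released from the membrane during its own processing, was at 2.22, 22.3, 2.91, 1.74, 4.27, 12.7, and 10.6 CPM in libraries 1 to 7 and at 91.0, 87.6, 88.6, and 117 CPM in libraries 8 to 11. Its spread within libraries 8 to 11 was small, with an SD of 0.19 in log2(CPM + 1) (n = 4), against 1.19 within libraries 1 to 7 (n = 7).

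The lesser MMPs picked out single lines. Mmp17, a membrane-type MMP held by a lipid anchor, was at 81.9 CPM in F333 uterus, 80.6 in F318 LOV, 25.8 in F319 ROV, and 15.2 in F318 ROV, and between 1.03 and 5.41 CPM in the other 7 lines. Mmp15, another membrane-type MMP, was highest in F326 ROV (49.9 CPM), F361 (38.3 CPM), and F319 ROV (22.6 CPM) and lowest in F318 LOV (0.175 CPM). Mmp16 reached 16.4 CPM in F339 ROV and 11.3 CPM in the F326 splenic tumor, was not detected in F319 uterus, and did not exceed 4.22 CPM elsewhere. Mmp19 ranged from 0.736 CPM in F361 to 49.8 CPM in F339 ROV, and Mmp28 from 0.507 CPM in F364 ROV to 22.0 CPM in F319 uterus. Mmp19 and Mmp28 overlap opposite-strand genes over 22.3% and 12.0% of their exon bases. The neutrophil collagenase Mmp8 peaked at 1.01 CPM (F364 LOV) and the brain-expressed Mmp24 at 2.07 CPM (F326 ROV).

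The stromelysins Mmp3 and Mmp10 and the collagenase Mmp13, which lie on the plus strand of chr9:7272514-7581885, a stretch that also holds the members Mmp12, Mmp8, and Mmp27, were low in all lines and highest in the same one. Mmp3 was at 8.78 CPM in F319 ROV (196 counts, 95% Wilson interval 7.20 to 10.7), and the next line, F318 ROV, was at 2.11 CPM (1.34 to 3.32). Mmp13 was at 5.19 CPM in F319 ROV (116 counts, 4.02 to 6.71), and the next line, F318 LOV, was at 1.31 CPM (0.794 to 2.16). Mmp10 was at 0.940 CPM in F319 ROV (21 counts, 0.518 to 1.71), and the next line, F326 ROV, was at 0.267 CPM (0.0732 to 0.974), so that for Mmp10 the intervals overlapped. Even-numbered counts were in excess among low counts, as when both mates of a pair are counted, so the intervals were computed on counts divided by 2, and they cover counting error only. F319 ROV was also the line with the most epithelial marker RNA, 159 CPM summed over 10 genes against 3.42 to 47.4 CPM in the others, and the link between these values was not tested.

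**Figure D2:**
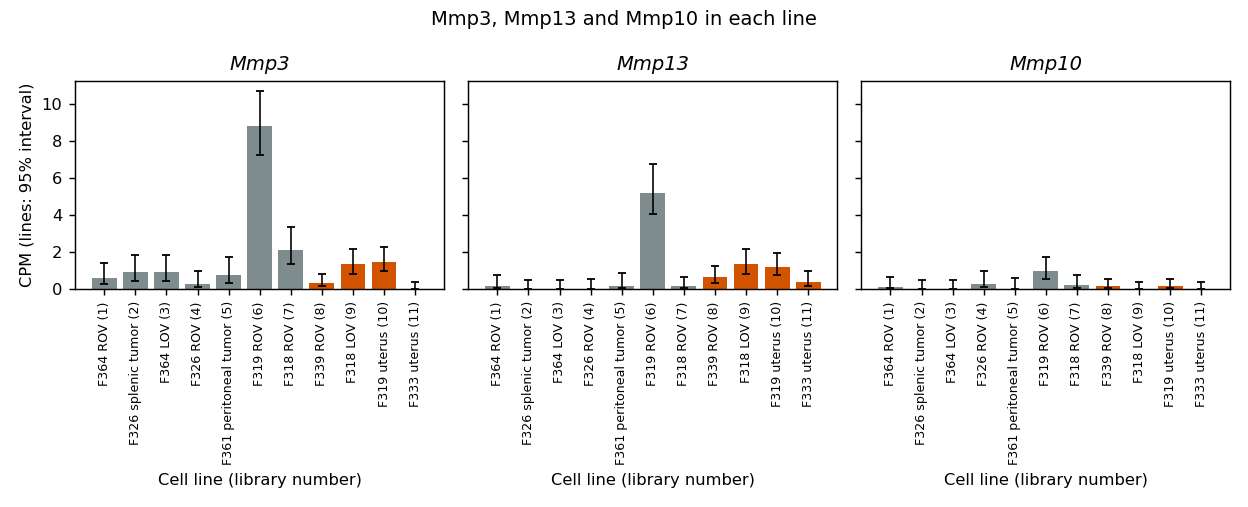
CPM of Mmp3, Mmp13, and Mmp10 in each line on 1 shared linear axis, with 95% Wilson intervals for counting error; gray bars are libraries 1 to 7 and orange bars libraries 8 to 11. F319 ROV stood above the other 10 lines in each panel, at 8.78, 5.19, and 0.940 CPM, with overlapping intervals for Mmp10.

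The sequences before these 3 genes are shown because the level of each was highest in the same line, for Mmp10 within counting error of the next. RefSeq promoters (250 bases before to 50 after a start, GRCm38.p6) matched 28 of the 41 members, with 30 promoters. The letters TGAGTCA, which the AP-1 factors Fos and Jun bind, were searched on both strands and stood in 4 of these 30 promoters (13.3%), against 5.20% of all 32851 promoters. The 4 were those of Mmp3, Mmp10, Mmp12, and Mmp13. Mmp12 did not share the peak, with 0.0896 CPM in F319 ROV and at most 0.457 CPM, in F318 ROV. Of the others, 0 of 4 TIMP and 0 of 10 ADAMTS promoters held the letters. TATAAA stood in 23.3% of the members' promoters and 13.6% of all, and the GC box GGGCGG in 60.0% and 35.7%. Below are the 100 bases before the start, in capitals AP-1, TATAAA, and GC box letters on either strand, all from the plus strand: Mmp3 at chr9:7445722-7445821, Mmp10 at chr9:7502242-7502341, and Mmp13 at chr9:7272414-7272513, followed by the abundant Mmp14 at chr14:54431498-54431597 and Timp1 at chrX:20870066-20870165 for contrast.
Mmp3: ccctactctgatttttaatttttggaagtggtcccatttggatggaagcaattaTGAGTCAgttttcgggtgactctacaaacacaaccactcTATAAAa
Mmp10: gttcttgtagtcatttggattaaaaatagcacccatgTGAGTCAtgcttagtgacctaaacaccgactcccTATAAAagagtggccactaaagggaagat
Mmp13: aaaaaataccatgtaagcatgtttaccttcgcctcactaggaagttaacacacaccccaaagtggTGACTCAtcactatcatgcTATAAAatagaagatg
Mmp14: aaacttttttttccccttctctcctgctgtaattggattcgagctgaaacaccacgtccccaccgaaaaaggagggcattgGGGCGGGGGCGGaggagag
Timp1: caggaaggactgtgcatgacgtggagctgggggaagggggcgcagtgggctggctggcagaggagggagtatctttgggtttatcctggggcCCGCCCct
The AP-1 letters begin 46, 63, and 35 bases before the start of Mmp3, Mmp10, and Mmp13. Of the exact letters searched, Mmp14 and Timp1 carry those of the GC box only. Near matches were not searched, and the Timp1 promoter holds one, TGAGTAA, after its start and outside the bases shown. The contrast is therefore one of exact letters. A match of letters is a description of the sequence, and no factor was measured on it.

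Among ADAMTS genes, Adamts1, Adamts2, and Adamts5 held a median of 61.6% of the family's level per length (46.5% to 83.5%). Adamts1 led in 7 lines and Adamts2 in 4. Adamts1, which cuts versican and aggrecan and is needed for normal ovulation, was at 50.5, 190, 69.8, 51.1, 42.4, 268, and 127 CPM in libraries 1 to 7 and at 451, 70.2, 173, and 70.1 CPM in libraries 8 to 11. Adamts5, a major aggrecanase, was at 7.48, 107, 15.8, 26.2, 22.5, 127, and 148 CPM and at 416, 52.2, 47.8, and 145 CPM. The 2 genes are neighbors on chromosome 16, and both were highest in F339 ROV. Neither separated the sets of libraries.

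The procollagen N-proteinases trim fibrillar procollagens before fibers form. Adamts2 was at 30.8, 140, 261, 77.1, 26.0, 46.3, and 231 CPM in libraries 1 to 7 and at 404, 277, 53.9, and 276 CPM in libraries 8 to 11. Adamts14 ranged from 4.79 CPM in F319 ROV to 46.8 CPM in F333 uterus with a median of 23.6 CPM, and Adamts3 peaked at 7.03 CPM in F319 uterus. Adamts2 thus exceeded 200 CPM in both sets of libraries and fell below 55 CPM in both.

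Of the remaining proteoglycan-cleaving genes, Adamts9 was at 63.2, 26.5, 85.5, 39.1, 6.04, 22.8, and 59.9 CPM in libraries 1 to 7 and at 8.90, 7.38, 1.26, and 0.743 CPM in libraries 8 to 11, overlapping only through F361. Adamts8 was at 15.6, 12.7, 4.18, 13.3, 14.4, 15.8, and 23.9 CPM and then at 1.02, 0, 0.370, and 0.371 CPM. Adamts15, its neighbor on chromosome 9, was at 4.38, 3.54, 25.3, 3.27, 1.77, 3.72, and 9.02 CPM and then at 0.0784, 0.0873, 0, and 0.0928 CPM, which is at or under 3 counts in each of the last 4 lines. Adamts8 and Adamts15 were therefore detected in all of libraries 1 to 7, and neither reached 1.1 CPM in libraries 8 to 11. Within F364 they went apart, Adamts15 being higher in LOV and Adamts8 in ROV. Adamts4, the other main aggrecanase, was at 38.7 CPM in F318 ROV, 49.8 in F339 ROV, and 47.4 in F318 LOV, 18.7 in F319 uterus, and 14 in F333 uterus, did not exceed 5.51 CPM elsewhere, and was not detected in F361. Adamts20 stayed at 3.83 CPM or less.

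Adamts12 and Adamts6 were highest in the same 5 lines. Adamts12 was at 55.8 CPM in F318 ROV, 104 in F339 ROV, 34.6 in F318 LOV, 47.2 in F319 uterus, and 121 in F333 uterus, with 9.05 CPM as the highest of the remaining 6. Adamts6 was at 14.1 to 35.0 CPM in these 5 lines with 4.62 CPM as the highest of the remaining 6. Adamts10, a fibrillin-binding member, ran from 11.9 to 82.6 CPM, and Adamts7 from 2.02 to 15.8 CPM. Adamts17 reached no more than 1.52 CPM, in the F326 splenic tumor. Adamts16 was above 4 CPM in F364 ROV, F326 ROV, and F333 uterus, and did not exceed 0.343 CPM in the other 8.

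The balance of proteases against inhibitors was set per line by summing levels per length. Summed MMP was at 98.1 TPM in F364 ROV, 194 in the F326 splenic tumor, 157 in F364 LOV, 156 in F326 ROV, 90.0 in F361, 283 in F319 ROV, 367 in F318 ROV, 1442 in F339 ROV, 1214 in F318 LOV, 623 in F319 uterus, and 1121 in F333 uterus. Summed TIMP was at 252, 346, 292, 293, 220, 534, 602, 2702, 1813, 1832, and 2617 TPM in the same order. Both sums moved over a wide range, 16.0-fold for MMP and 12.3-fold for TIMP, and TIMP exceeded MMP in all 11 lines.

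The ratio of the sums varied far less, from 0.340 in F319 uterus to 0.670 in F318 LOV, a range of 1.97-fold with a median of 0.532. It was at 0.390, 0.562, 0.536, 0.532, 0.409, 0.530, and 0.610 in libraries 1 to 7 and at 0.534, 0.670, 0.340, and 0.429 in libraries 8 to 11, so the sets of libraries overlapped. On the log2 scale the median was -0.91 (SD 0.30, n = 11), and it was -0.05 when Timp2 was left out of the inhibitors. For a pair of genes with a shared activity the ratio varied more: Mmp2 to Timp2 ran from 0.033 in F319 uterus to 0.776 in F318 LOV, and Mmp14 to Timp2 from 0.097 to 0.667. A ratio of summed transcripts weighs each gene by its level and says nothing of how much enzyme is inhibited.

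**Figure D3:**
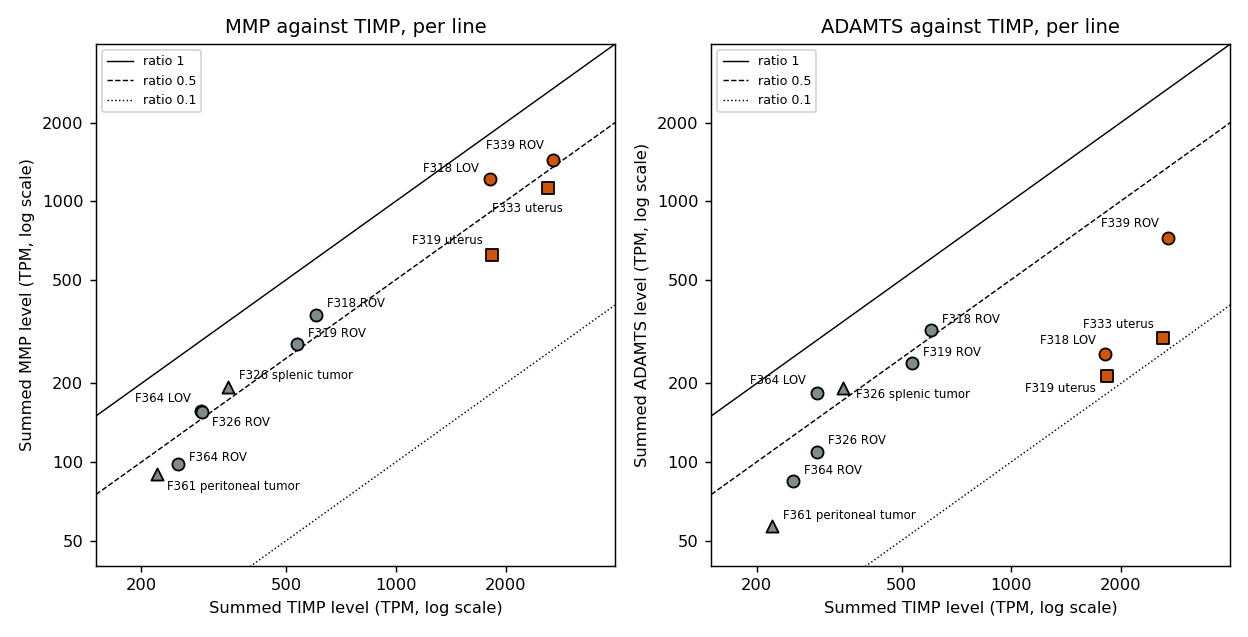
Summed MMP level (left) and summed ADAMTS level (right) against summed TIMP level in each of the 11 lines, in TPM on log axes. Circles are ovary, squares uterus, and triangles tumor lines, gray marks are libraries 1 to 7 and orange marks libraries 8 to 11, and lines mark ratios of 1, 0.5, and 0.1. MMP followed TIMP at ratios of 0.340 to 0.670, whereas ADAMTS fell to 0.114 to 0.267 of TIMP in the orange lines.

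Summed ADAMTS did not follow the inhibitors in this way. It was at 84.2, 191, 184, 110, 56.9, 240, and 320 TPM in libraries 1 to 7 and at 720, 258, 214, and 298 TPM in libraries 8 to 11. Its ratio to TIMP was at 0.334, 0.553, 0.629, 0.375, 0.259, 0.449, and 0.532 in the first set and at 0.267, 0.142, 0.117, and 0.114 in the second, where F339 ROV alone reached the range of the first. On the log2 scale the median of this ratio was -1.58 (SD 0.90, n = 11), and it was -0.52 without Timp2 and -0.65 with counts not divided by length. It was at -1.15 in libraries 1 to 7 and at -2.96 in libraries 8 to 11. These ratios are descriptions of single libraries and were given no test.

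The split by library number was tested because every level had to be read beside it. The labels give the numbers but no such groups, and the line between libraries 7 and 8 was drawn from the data, where the muscle and Y-linked levels break. In edgeR's quasi-likelihood test over all 15954 genes that passed its filter, 9337 differed at a Benjamini-Hochberg adjusted p under 0.05, 28.6% of genes being higher and 29.9% lower in libraries 8 to 11. Of the 41 members, 30 passed the filter on low counts and 18 of them were called, 12 higher and 6 lower. The call rate of members is to be read against that background, in which most genes were called. By family, 6 of 12 MMPs tested were higher and 1 lower, 3 of 4 TIMPs were higher and 1 lower, and 3 of 14 ADAMTS genes were higher and 4 lower. The median log2 fold change of all genes was 0.03, that of the members tested 0.99.

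Higher in libraries 8 to 11 were Mmp23 (log2 fold change 3.23, SE 0.60, adjusted p = 0.00086), Timp1 (2.85, SE 0.44, adjusted p = 0.000301), Timp3 (2.25, SE 0.39, adjusted p = 0.0006), and Timp2 (1.71, SE 0.29, adjusted p = 0.000494). Adamts12, Adamts6, Mmp19, Mmp14, Mmp2, Mmp11, Mmp28, and Adamts10 were the other 8, with log2 fold changes from 2.68 down to 0.92. Lower were Adamts15 (-7.08, SE 1.07, adjusted p = 0.000255), Adamts8 (-5.34, SE 0.79, adjusted p = 0.000221), Timp4 (-4.94, SE 0.66, adjusted p = 0.000137), Adamts20 (-4.38), Adamts9 (-3.64), and Mmp15 (-3.07). All 4 that were lower among ADAMTS genes are proteoglycan-cleaving, while Adamts1, Adamts4, and Adamts5 of the same list were not called.

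Of the 30 members tested, 6 were higher without overlap between the sets of libraries (Timp1, Timp2, Timp3, Mmp11, Mmp23, and Mmp28), beside 26.1% of genes. Lower without overlap were 4 of the 30 (Timp4, Adamts8, Adamts15, and Adamts20), beside 17.1% of genes. Both shares of members lay below those of all genes. Leaving out a single line ended the call of Mmp19 (without F339 ROV, adjusted p = 0.054), Mmp15 (without F319 uterus, 0.0578), Adamts6 (without F318 LOV, 0.0554), and Adamts10 (without F339 ROV, 0.0673, or F333 uterus, 0.0627). Adamts12 lost its call without any of 7 lines (F326 splenic tumor, F364 LOV, F326 ROV, F361, F319 ROV, F339 ROV, or F333 uterus, adjusted p from 0.0516 to 0.0886).

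**Figure D4:**
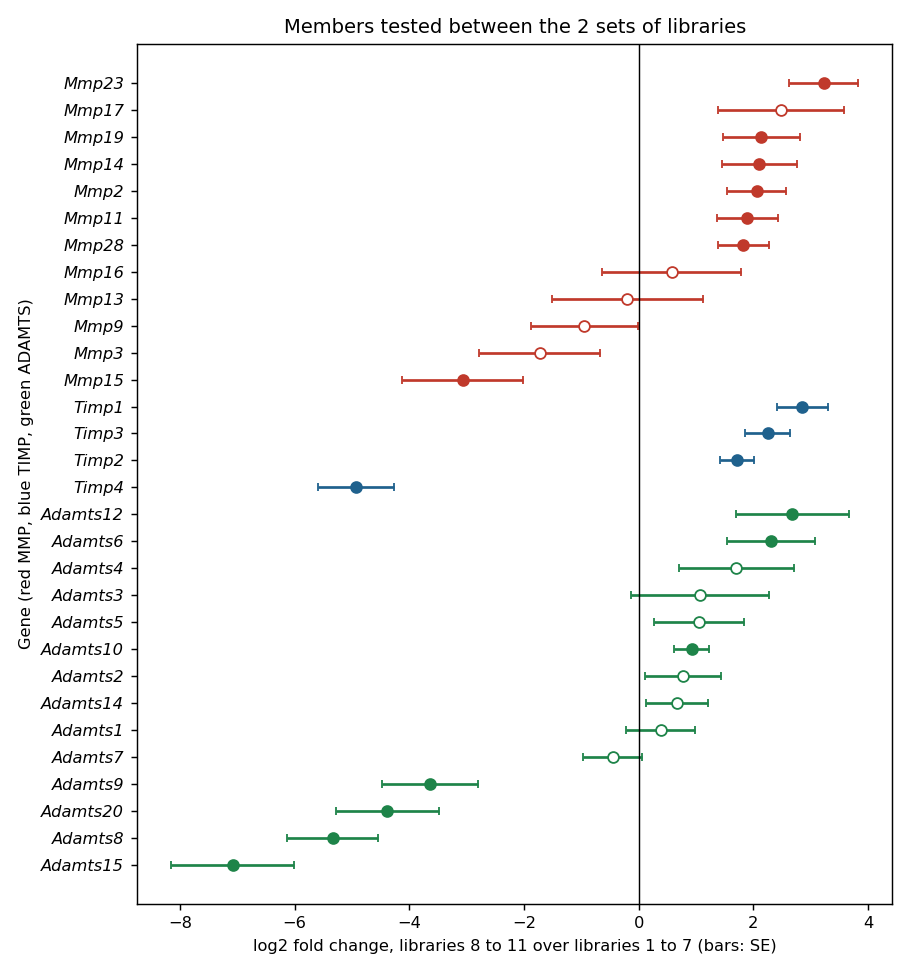
Log2 fold change of libraries 8 to 11 over libraries 1 to 7 for the 30 members tested with edgeR, with bars of 1 SE; filled points have an adjusted p under 0.05 over all genes. Points are grouped by family and ordered by size within it. Of the TIMPs, Timp1, Timp2, and Timp3 lie between 1.71 and 2.85 and Timp4 at -4.94.

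With the mouse as a block, which compares within F318 and F319, the 2 mice with a line on each side, 7 members were called: Timp1 was higher (log2 fold change 1.66, adjusted p = 0.0412), and Timp4, Adamts8, Adamts9, Adamts15, Adamts20, and Mmp15 were lower (-3.80 to -7.35). Of all genes, 5.45% were higher and 13.5% lower in that fit. Timp2 (1.22, adjusted p = 0.0667), Timp3 (1.48, adjusted p = 0.156), Mmp23 (2.70, adjusted p = 0.102), Mmp11 (2.79, adjusted p = 0.0541), and Mmp28 (1.74, adjusted p = 0.165) kept their direction and lost their call. The blocked log2 fold changes of Mmp2 (0.48), Mmp14 (0.04), Mmp19 (0.99), Adamts6 (1.64), Adamts12 (1.67), and Adamts10 (0.08) had adjusted p-values of 0.259 or more. DESeq2 called 23 of 40 members it tested, 14 higher and 9 lower, beside 22.3% and 28.0% of all genes. It added Mmp17 and Mmp13 as higher and Mmp8, Mmp24, and Adamts17 as lower. For Mmp13 the direction turned, from a log2 fold change of -0.20 by edgeR (adjusted p = 0.906) to 2.69 by DESeq2 (adjusted p = 0.00421). Among ovary lines only, 11 members were called, 6 higher and 5 lower, with all of Timp1 to Timp3 higher and Timp4 lower, where 18.6% of all genes were higher and 22.1% lower. In the edgeR fit of all 11 lines without the block, 28.6% of all genes were higher and 29.9% lower. Of the mesenchymal markers, 6 of 12 tested were called higher and 2 lower in that fit. Blood cell (8 of 10) and endothelial genes (6 of 8) were called lower. Muscle fiber (30 of 30) and Y-linked genes (4 of 4) were lower too, which restates the levels that set the groups. Their part in these differences was not tested, and library number, sex-linked RNA, and muscle RNA cannot be told apart in this design.

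Uterus lines were compared with ovary lines to ask whether the organ of origin sets the protease repertoire. In edgeR's quasi-likelihood test, 0 of 35 members and 0 of 17446 genes (0.00%) differed at an adjusted p under 0.05, while 6 members and 2308 genes had an unadjusted p under 0.05. With DESeq2, 1293 genes were called, 1128 of them lower in uterus (6.04% of those tested), among them 4 members: Adamts9 (log2 fold change -5.73, SE 0.97, adjusted p = 6.13e-06), Adamts15, Adamts8, and Timp4. In the uterus lines Adamts9 was at 1.26 CPM (F319) and 0.743 CPM (F333), below all ovary lines, which ran from 7.38 to 85.5 CPM with a median of 39.1 CPM. Timp2 was at 1335 and 1173 CPM against 176, 323, and 1217 CPM (lowest, median, and highest), and Mmp11 at 278 and 85.8 CPM against 13.0, 45.4, and 167 CPM, so both overlapped. Both uterus libraries belong to libraries 8 to 11. Within those 4 libraries no gene of 15566 was called by edgeR (522 with an unadjusted p under 0.05), and the log2 fold change of Adamts9 was -3.02 (SE 0.59, unadjusted p = 0.00352). For the other 3 the organs overlapped within those libraries. Timp4 was at 1.41 CPM in F319 uterus and 3.34 in F333 uterus, against 2.20 in F339 ROV and 0.175 in F318 LOV (log2 fold change 1.06, SE 1.23). Adamts8 was at 0.370 and 0.371 CPM against 1.02 and 0 CPM, and Adamts15 was at 3 counts or fewer in all 4.

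Lines from visible tumors were compared with ovary lines in the same way. edgeR called 0 of 34 members and 0 of 16768 genes (0.00%), with 2 members and 1371 genes at an unadjusted p under 0.05, and DESeq2 called 260 genes and 0 members. The 2 members were lower in tumor lines. Mmp11 was at 15.4 CPM in the splenic and 6.41 in the peritoneal line, against 13.0 to 167 CPM with a median of 45.4 CPM in ovary lines (log2 fold change -2.15, SE 0.80, adjusted p = 0.561). Adamts14 was at 6.33 and 5.82 CPM against 4.79, 23.6, and 42.1 CPM (-1.80, SE 0.70, adjusted p = 0.561). The lowest ovary line was F319 ROV for both genes. Both tumor libraries belong to libraries 1 to 7, within which the log2 fold changes were -1.68 (SE 0.60) for Mmp11 and -1.73 (SE 0.73) for Adamts14, again with no gene called. The 2 tumor lines themselves differed widely, with Mmp14 at 147 and 24.5 CPM, Adamts5 at 107 and 22.5 CPM, and Mmp15 at 3.04 and 38.3 CPM.

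Lines labeled as from the same mouse were set side by side. Every pair holds at least 1 of libraries 1 to 7, which carry Y-linked RNA although the organs are female. The differences can therefore not be read as those of 1 germline genotype. Each pair has 1 library a line and so no test, and members at 10 CPM or more in at least 1 line of the pair were counted when they differed over 2-fold, with 3 counts as the floor. In F364, whose 2 ovary lines are both among libraries 1 to 7, 4 of 16 members differed (background 7.14% of genes): Adamts2 was at 30.8 CPM in ROV and 261 in LOV (8.46-fold, 95% counting interval 7.40 to 9.66), Adamts15 at 4.38 and 25.3, Adamts5 at 7.48 and 15.8, and Adamts8 at 15.6 and 4.18. All 4 were ADAMTS genes, and none of the MMPs and TIMPs counted passed 2-fold in this pair.

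In F326, from ovary to splenic tumor, 10 of 17 members differed (background 26.6%), 5 in each direction. Higher in the splenic tumor line were Mmp23 (1.74 to 22.3 CPM), Mmp16 (1.07 to 11.3 CPM), Adamts5 (26.2 to 107 CPM), Mmp14 (37.6 to 147 CPM), and Adamts1 (51.1 to 190 CPM). Lower were Mmp15 (49.9 to 3.04 CPM), Adamts14 (33.8 to 6.33 CPM), Mmp11 (45.4 to 15.4 CPM), Timp4 (55.0 to 22.3 CPM), and Timp3 (137 to 63.6 CPM). Mmp14 was 3.92-fold higher in the tumor line (3.44 to 4.47), and Mmp15, another membrane-type MMP that can activate pro-MMP2, was at 0.0608 of its level in the ovary line. Both libraries are among 1 to 7, with muscle shares of 14.4% and 11.5%.

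The other 2 pairs lie on both sides of the library split. In F318, 16 of 22 members differed from ROV to LOV (background 40.7%), 11 higher and 5 lower, with Timp3 at 105 and 736 CPM, Mmp2 at 108 and 434 CPM, Timp4 at 50.1 and 0.175 CPM, and Adamts8 at 23.9 and 0 CPM, which is at least 183-fold lower. In F319, 16 of 23 differed from ROV to uterus (background 54.0%), 9 higher and 7 lower, with Adamts12 at 1.88 and 47.2 CPM, Mmp11 at 13.0 and 278 CPM, Mmp17 at 25.8 and 2.70 CPM, and Mmp15 at 22.6 and 0.518 CPM. Mmp17 moved in opposite directions in these 2 pairs, and Mmp14 and Mmp2 were over 2-fold higher in F318 LOV while their ratio of uterus to ROV was 0.709 and 0.660 in F319.

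**Figure D5:**
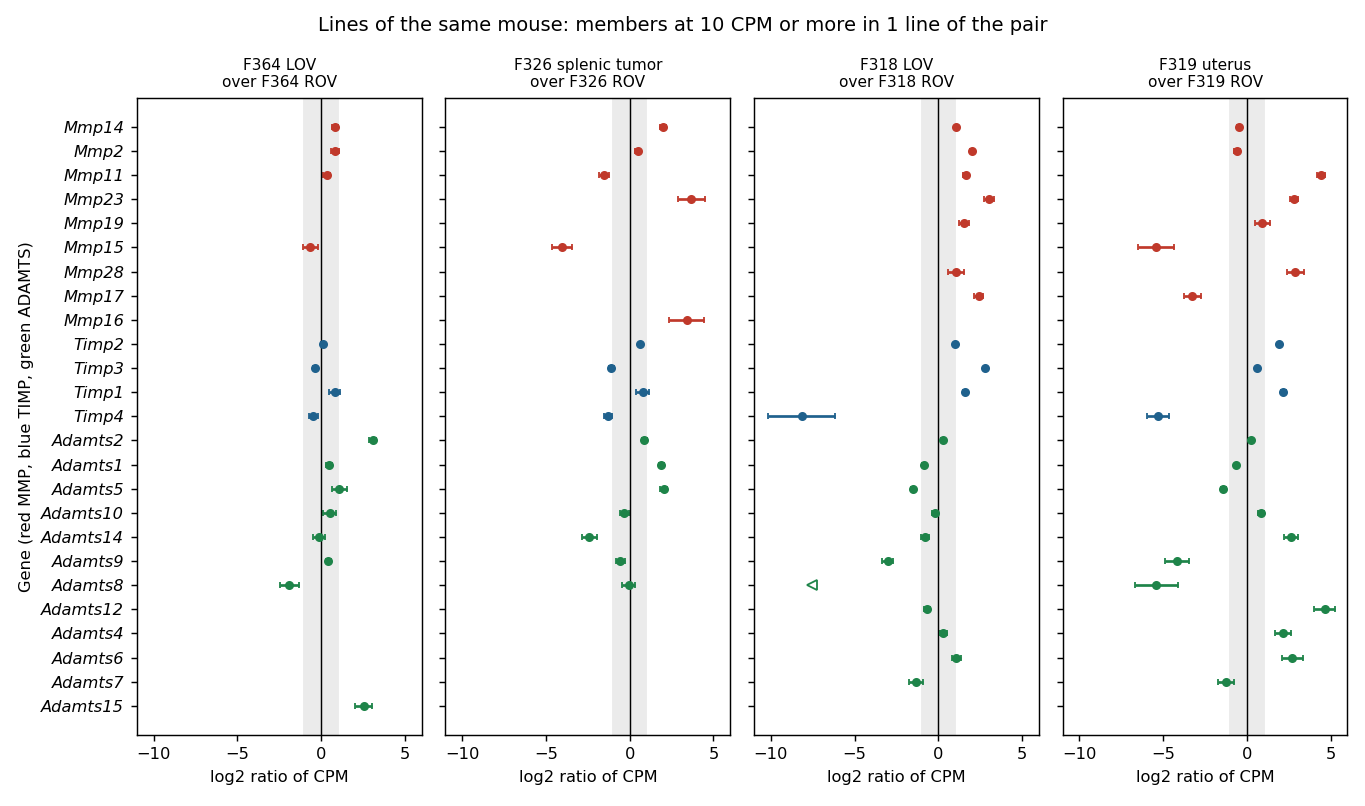
Log2 ratio of CPM between the 2 lines of each of 4 mice, for members at 10 CPM or more in at least 1 line of the pair; bars are 95% intervals for counting error and the gray band marks a change of up to 2-fold. The open triangle is drawn with the floor of 3 counts in place of 0, for Adamts8 at 0 counts in F318 LOV. F364 had 4 members outside the band, F326 had 10, and the pairs of F318 and F319 had 16 each.

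The plasmin system, which activates several pro-MMPs, was present without its zymogen. Plasminogen (Plg) did not exceed 0.380 CPM and its inhibitor Serpinf2 0.235 CPM, whereas the activator gene Plau was at 15.7 to 148 CPM (median 45.5) and its receptor Plaur at 2.47 to 110 CPM (median 32.3). Of 6 genes of this list tested, 2 were called higher in libraries 8 to 11, Plat (log2 fold change 1.28, SE 0.41, adjusted p = 0.0177) and Plau (1.05, SE 0.39, adjusted p = 0.0338), and 0 lower. Of 27 other matrix proteases and regulators tested, 7 were called higher and 5 lower, shares below those of all genes (28.6% and 29.9%). Among the higher were the sheddase genes Adam10 (1.38, SE 0.37) and Adam17 (1.31, SE 0.24), the membrane-anchored MMP inhibitor gene Reck (1.03, SE 0.41), and Lrp1 (2.18, SE 0.49), whose product clears proteases and TIMPs from the cell surface. Among the lower were the lysosomal protease genes Ctss (-4.01, SE 0.51) and Ctsd (-1.73, SE 0.30). Of 5 ADAMTS-like genes, which lack a protease domain, Adamtsl3 was called higher (2.86, SE 0.83) and Adamtsl2 and Adamtsl5 lower (-4.05, SE 1.34, and -1.37, SE 0.48). The calls of these listed genes come from the fit without the mouse as a block and were not read in the other fits. With the block, 3028 genes were called in place of 9337.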

How the data were processed

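mRNA of 11 cell lines was sequenced, 1 library per line. The deposited values are raw counts per gene without normalization, which the authors made with STAR (GRCm38, mm10), SAMtools RmDup, and featureCounts from paired-end reads; tool versions and the strand setting are not given in the sources used here. Groups are those of the titles, and library numbers those of the descriptions.

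The members and all gene lists were chosen with earlier results of these data known. Members at 10 CPM or more in a line, or called in a comparison, were named with values, and the others by range and count. From the counts, CPM and TPM were computed, the latter with the joined exon length of GENCODE M21 (27092 of 28284 symbols matched uniquely, holding 97.7% of the counts). edgeR's quasi-likelihood test used TMM, filterByExpr, and Benjamini-Hochberg adjustment over all genes tested (R 4.3.3, edgeR 4.0.16). It was tested on simulated data. A gene's SE was its log2 fold change divided by the square root of F. P-values measure the spread between lines, of which some share a mouse.

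Alternatives were DESeq2 1.42.0, its size factors, no low-count filter, muscle fiber genes left out, each line left out, ROV lines only, 1 set of libraries, ovary lines only, and the mouse as a block. The block rests on mice named in the titles. Deviations from the mean of the library set correlated across 12077 genes at 0.295, 0.239, -0.0678, and -0.524 between the 2 lines of F364, F318, F319, and F326, and at -0.0529 and -0.00643 between lines of F318 and F319. Taking out the mean of a set pulls correlations within that set below 0. The pairs of F364 and F326 lie within 1 set and all the others across sets, so these values are not on 1 scale. Promoter letters came from RefSeq (GRCm38.p6). Python 3.11.15, pandas 2.3.3, and matplotlib 3.10.9 were used. Protein sequences were not used here.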

Additional observations from a re-analysis of the deposited data

Results flagged for a closer look

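Mmp16 stood out in 1 line. At 16.4 CPM in F339 ROV, against 0.507 to 2.42 CPM in the other 6 ovary lines, it had a gap to the next line of 0.665 of the range on the log2 scale, where 0.568 is the limit for 7 values. Of 27 quantities examined in this way, 1 passed, and chance passes about 1 group in 20. The F326 splenic tumor line was at 11.3 CPM.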

How the results depend on the processing

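For uterus against ovary, DESeq2 called 4 members in place of 0 (and 1293 genes), and for tumor against ovary it called 260 genes in place of 0 and 0 members. Leaving out 1 line each left both at 0 members. With the mouse as a replicate block, added after seeing the data and resting on 1 mouse with a line on both sides (F319, F326), edgeR called 0 members and 0 genes in each, with 7 and 2 members at an unadjusted p under 0.05. The library split gave 23 members with DESeq2, 17 to 19 when 1 line was left out, 11 among ovary lines only, 7 with the mouse as a replicate block (3028 genes in place of 9337), and 10 when no overlap of CPM was asked for, a rule added after seeing the data. The median log2 ratio of MMP to TIMP, -0.91, became -0.052 without Timp2 and was -0.914 to -0.909 with 1 line left out. That of ADAMTS to TIMP, -1.58, became -0.65 with counts not divided by length, -0.52 without Timp2, and -2.96 in libraries 8 to 11 only, and was -1.74 to -1.50 with 1 line left out. The other 89 settings of these counts and ratios moved them by less than the limits set. For the 18 members called in the split and the 8 cases with an unadjusted p under 0.05 in the other comparisons, fold changes under alternatives kept their side of the threshold 397 times, gained it 3 times, and lost it 30 times, with 0 reversed. Outside these, DESeq2 also called Timp4 lower in uterus and 5 members in the split, among which Mmp13 turned from -0.20 to 2.69. The cause was not tested. With the block, 11 of 18 members lost their call. Members at 1 CPM or more in a line numbered 34, 33 or 34 with 1 line left out, 29 in libraries 8 to 11 only, and 30 at a limit of 5 CPM. Depth limits statements on the 7 members below 1 CPM.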
